A study of Mus musculus with 6 samples.

Results

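The oligoadenylate synthetase (Oas) genes and the Oas-like (Oasl) genes of the mouse were measured in the brains of mice injected with LPS and of vehicle-treated controls. The genes described are Oas1a, Oas1b, Oas1g, Oas2, Oas3, Oasl1 and Oasl2, and every transcript cluster whose annotation names one of them, alone or together with another gene, was taken. A transcript cluster is a group of probes that together read one transcribed region. This gave 7 of the 35556 clusters on each array. Of these, 6 name 1 gene and 1 names both Oas1a and Oas1g. Oas1g was measured only in that shared cluster, so no value here belongs to Oas1g alone. Oas1a has a cluster of its own in addition.

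Male mice of the strain C57BL/6, aged 7 to 8 weeks, received an i.p. injection of either 4 mg/kg LPS of Escherichia coli serotype 055:B5 or PBS alone. Whole brains were collected 48 hours later, after the vessels had been flushed with PBS, and the RNA of each mouse was hybridized to 1 Affymetrix Mouse Gene 1.0 ST array, with 3 arrays per group. The question was which transcripts in the brain differ after an inflammatory stimulus given in the periphery. No other genotype or agent entered the comparison. All values are log2 expression after robust multichip average (RMA) normalization, so a difference of 1 is a 2-fold change. A whole brain mixes all of its cell types, so a change in the number of cells of a type and a change in the RNA per cell cannot be told apart.

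Oas enzymes bind double-stranded RNA and join ATP into short chains of adenylate known as 2-5A. 2-5A sets off the cutting of RNA, viral and cellular, which stops protein synthesis in an infected cell. The genes are classical targets of type I interferon, whose receptor acts through transcription factors that include Stat2 and Irf9, and the proteins act beside other double-stranded RNA sensors such as Eif2ak2 (PKR), Ddx58 (RIG-I) and Ifih1 (MDA5).

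Of the 7 clusters, 4 rose after LPS, namely those of Oasl2, Oas2, Oas1b and the cluster that Oas1a and Oas1g share, with a limma adjusted p under 0.05 over all clusters. Over all 35556 clusters, 0.652% were called higher by the same test. None of the 7 was called lower by limma, and at an unadjusted p under 0.05 the counts were 6 higher and 0 lower. Over all 35556 clusters, the unadjusted limma counts were 2733 higher and 2341 lower. In 6 of the 7, all of them but Oas3, every LPS array lay above every PBS array, a separation that 9.73% of all clusters showed. The median log2 fold change of the 7 clusters was 0.81, against -0.000925 over all clusters. The size of the change ranged from 1.05-fold for Oas3 to 5.44-fold for Oasl2. By the methods' t-test, on the same values and with the same adjustment, 0 of the 7 were called, and 5 had an unadjusted p under 0.05. Over all clusters that test called 4 higher and 1 lower, with 2100 higher and 2114 lower at an unadjusted p under 0.05.

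The first principal component (54.5% of the variance) placed LPS replicates 1 and 2 away from the remaining arrays, and their median log2 values of 7.09 and 7.11 compare with 6.96 in LPS replicate 3 and 6.95 to 6.98 in the PBS arrays. Genes of olfactory and vomeronasal receptors, which are mostly silent in brain, served as a guide to the background signal. Their 1210 clusters had a median between 5.67 and 5.81 on the 6 arrays and a 95th percentile between 6.46 and 6.64. Because probes differ in brightness, a place among these receptor clusters is a guide and not a measure of abundance.

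Oasl2 encodes an Oas-like protein that carries ubiquitin-like domains behind its synthetase domain and can make 2-5A. Log2 expression of Oasl2 was 7.07, 6.90 and 6.99 in PBS replicates 1 to 3 and 9.24, 9.33 and 9.73 in LPS replicates 1 to 3. The groups were far apart, and the lowest LPS array lay more than 2 log2 units above the highest PBS array. The log2 fold change was 2.44 (SE 0.14, 95% confidence interval 2.12 to 2.77, limma adjusted p = 0.00153), a 5.44-fold increase with an interval of 4.34 to 6.82. It was the fifth largest increase among all clusters. Oasl2 was the one member above the 95th percentile of the receptor genes in the vehicle-treated controls, where it lay above 98.3% to 99.2% of them, and in LPS-treated mice it lay above all of them. The call held in 6 of 6 fits that left out 1 array, with log2 fold changes from 2.30 to 2.54.

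Oasl1 stands next to Oasl2 on chromosome 5. Its protein has lost the synthetase activity and is known to hold back the translation of Irf7. Log2 expression of Oasl1 was 5.99, 6.23 and 6.25 after vehicle and 6.47, 6.51 and 6.62 after LPS. Each LPS array lay above each PBS array, but the difference of 0.37 (SE 0.10, interval 0.14 to 0.61) had a limma adjusted p of 0.193 and did not pass the test. In size it was 1.30-fold, with an interval of 1.10 to 1.52. Oasl1 lay above 73.8% to 87.6% of the receptor clusters in the controls and above 92.7% to 97.2% after LPS.

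**Figure D1:**
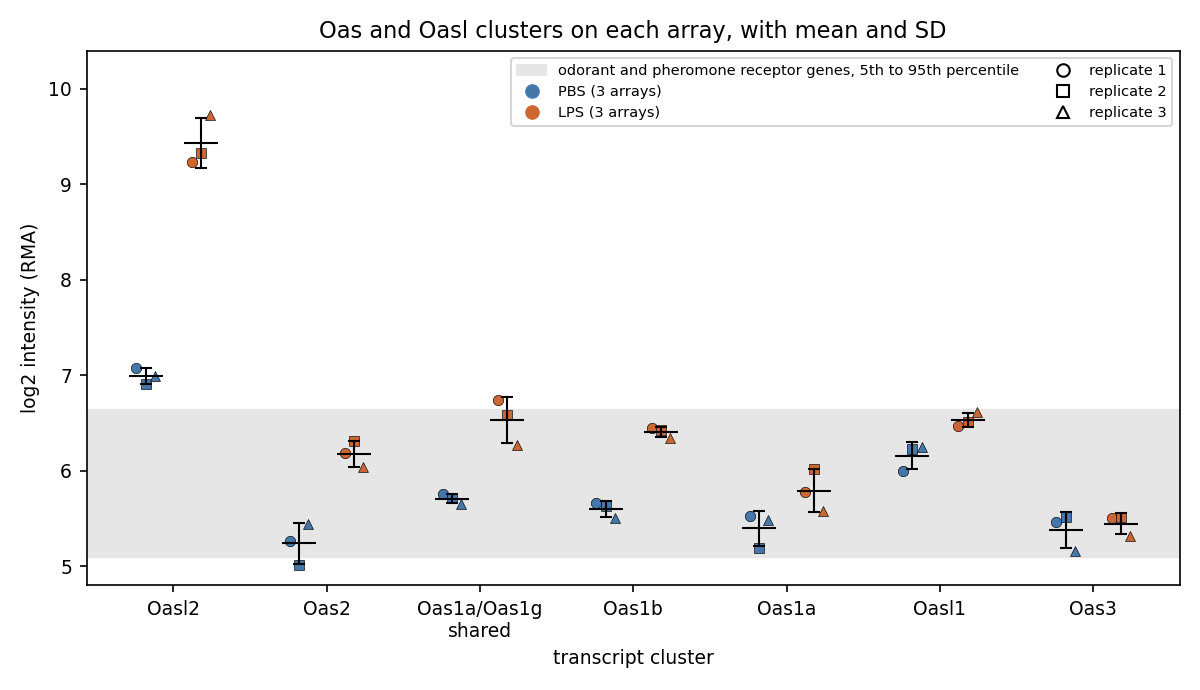
Log2 expression (vertical axis) of the 7 Oas and Oasl clusters on each of the 3 PBS and 3 LPS arrays, with the mean and SD of each group and a grey band from the lowest 5th to the highest 95th percentile of the olfactory and vomeronasal receptor genes on any array. Only Oas3 has overlapping groups, and Oasl2 is the one cluster with all 6 arrays above the band.

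Oas1b is the member of the Oas1 group known for resistance to flaviviruses in wild mice. In C57BL/6 mice the gene carries a premature stop codon, and the RefSeq annotation of the reference strain lists it as a transcribed pseudogene. Its transcript rose after LPS. Log2 expression of Oas1b was 5.66, 5.63 and 5.50 after vehicle and 6.45, 6.43 and 6.35 after LPS. The replicates of each group lay close together, with an SD of 0.09 in the controls and 0.05 after LPS, and the groups did not overlap. Oas1b lay above 26.3% to 46.0% of the receptor clusters in the controls and above 90.4% to 93.5% after LPS. The log2 fold change was 0.81 (SE 0.08, 95% confidence interval 0.62 to 1.00, limma adjusted p = 0.00909), or 1.76-fold. The call of Oas1b ended without any one of the PBS replicates or without LPS replicate 1, at adjusted p values of 0.0545 to 0.0636, while the log2 fold change stayed between 0.76 and 0.84 in all 6 fits that left out 1 array.

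Oas1a and Oas1g encode short synthetases that make 2-5A. Log2 expression of their shared cluster was 5.75, 5.72 and 5.66 after vehicle and 6.74, 6.59 and 6.27 after LPS. The groups did not overlap, and the LPS arrays spread more widely, with an SD of 0.24 against 0.05. The shared cluster lay above 42.0% to 54.8% of the receptor clusters in the controls and above 90.9% to 97.5% after LPS. The log2 fold change was 0.82 (SE 0.13, interval 0.52 to 1.12, limma adjusted p = 0.0492), or 1.77-fold, and it stayed past the threshold in 1 of 6 fits that left out 1 array, the fit without LPS replicate 3. The cluster that names Oas1a alone gave a smaller value. Its log2 expression was 5.53, 5.19 and 5.48 after vehicle and 5.78, 6.02 and 5.58 after LPS. Here too every LPS array lay above every PBS array, with a log2 fold change of 0.39 (SE 0.14, interval 0.05 to 0.74, limma adjusted p = 0.303). The annotation gives the shared cluster to both genes, so its signal can come from either. The clusters of Oas1a and of both genes do not have to give the same fold change.

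Promoter sequences came from a RefSeq table of GRCm38.p6, which gives 250 bases before to 50 bases after 1 start per entry. An entry was used for 5 of the 7 members (Oas1a, Oas1g, Oas3, Oasl1 and Oasl2, but not Oas1b and Oas2) and for 3 of the 5 other Oas1 genes (Oas1c, Oas1f and Oas1h). That start lies inside the outer end of the annotated gene by 19 bases in Oas1a, 25 in Oas3, 26 in Oas1c, 8 in Oasl2 and 97 in Oasl1, and at the end itself in Oas1g. They were searched on both strands for the core of the interferon-stimulated response element, GAAANNGAAA, which is bound by the interferon-activated complex that holds Stat2 and Irf9. The sequences below are shown because Oas1a, Oas1g and the neighbouring gene Oas1c hold the same run of 2 overlapping matches, Oas3 holds a different match and Oasl2 holds none. Capitals mark the matches, all are read 5′ to 3′ on the minus strand of chromosome 5 except Oasl2, which is on the plus strand, and the regions are chr5:120907476-120907775 for Oas1a, chr5:120887564-120887863 for Oas1g, chr5:120812465-120812764 for Oas1c, chr5:120777610-120777909 for Oas3 and chr5:114896684-114896983 for Oasl2.
Oas1a: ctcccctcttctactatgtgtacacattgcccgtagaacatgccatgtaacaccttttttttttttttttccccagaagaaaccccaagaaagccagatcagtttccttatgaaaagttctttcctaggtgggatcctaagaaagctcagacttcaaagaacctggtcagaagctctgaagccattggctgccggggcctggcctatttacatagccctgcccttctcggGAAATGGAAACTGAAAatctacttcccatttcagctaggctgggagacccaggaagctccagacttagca
Oas1g: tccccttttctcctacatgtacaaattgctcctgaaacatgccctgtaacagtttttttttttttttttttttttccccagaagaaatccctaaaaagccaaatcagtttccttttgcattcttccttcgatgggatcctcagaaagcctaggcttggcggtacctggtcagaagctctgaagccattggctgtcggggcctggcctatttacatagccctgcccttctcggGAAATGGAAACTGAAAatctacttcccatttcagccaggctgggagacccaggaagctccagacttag
Oas1c: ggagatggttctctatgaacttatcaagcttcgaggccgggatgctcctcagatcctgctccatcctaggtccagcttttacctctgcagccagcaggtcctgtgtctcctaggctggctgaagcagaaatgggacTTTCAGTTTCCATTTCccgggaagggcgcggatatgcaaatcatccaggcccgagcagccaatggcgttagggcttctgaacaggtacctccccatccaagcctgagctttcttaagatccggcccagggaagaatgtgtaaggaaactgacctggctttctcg
Oas3: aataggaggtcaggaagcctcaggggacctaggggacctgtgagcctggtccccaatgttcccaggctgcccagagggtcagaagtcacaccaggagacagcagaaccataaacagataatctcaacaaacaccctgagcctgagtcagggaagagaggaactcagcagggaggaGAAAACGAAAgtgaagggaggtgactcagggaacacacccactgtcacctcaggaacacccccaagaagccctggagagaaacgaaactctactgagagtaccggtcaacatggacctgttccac
Oasl2: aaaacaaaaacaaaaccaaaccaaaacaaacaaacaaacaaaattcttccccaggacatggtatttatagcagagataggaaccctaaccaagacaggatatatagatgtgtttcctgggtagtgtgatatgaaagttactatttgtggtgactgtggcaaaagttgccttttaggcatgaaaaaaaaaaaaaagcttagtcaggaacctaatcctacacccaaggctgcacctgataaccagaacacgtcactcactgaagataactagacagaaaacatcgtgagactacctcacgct

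The match GAAANNGAAA was found in 3 of the 5 member promoters, in 1 of the 3 from the other Oas1 genes (Oas1c, not Oas1f or Oas1h) and in 3.44% of all 32851 promoters of the same length. In Oas1a and Oas1g a run of 16 bases, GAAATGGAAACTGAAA, holds 2 matches that overlap, and it begins 20 bases before the table's start in Oas1a and 18 bases before it in Oas1g. Counted from the outer end of the annotated gene, it begins 1 base before that of Oas1a and 18 bases before that of Oas1g. The promoters of these genes were identical at 261 of 306 aligned positions, or 85.3%, and the next pair of member promoters, Oas3 and Oasl1, at 50.3% of positions. Oas1c has the same 16 bases on the opposite strand, as TTTCAGTTTCCATTTC. In the coordinates of the build that run ends 7 bases to the left of the annotated lower end of Oas1b, which lies inside the Oas1c window at position 120812635. So the promoter window of Oas1c reaches into the span of Oas1b, for which no promoter entry was used. The transcript of Oas1c had a log2 difference of -0.11 and that of Oas1b rose. A part of this run in the level of either transcript was not tested. Oas3 has 1 match, GAAAACGAAA, which begins 75 bases before the table's start and 50 bases before the outer end of the annotated gene. No match was found in the windows of Oasl2 and Oasl1, which says only that these letters are not in these 300 bases. Other motifs were rarer among the members. The gamma-activated site TTCNNNGAA was in the Oas1a promoter alone of the 5 and in 8.3% of all promoters, the kappa-B form GGGANNTTCC was in none of the 5 and in 1.47% of all, and the TATA box TATAAA was in the Oasl2 promoter alone, on the opposite strand and 187 bases before the table's start, and in 13.6% of all. A match is a description of the letters and not evidence of binding.

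Oas2 encodes a longer synthetase built from repeated synthetase domains. Log2 expression of Oas2 was 5.27, 5.02 and 5.44 after vehicle and 6.18, 6.31 and 6.04 after LPS. The groups lay apart, and the log2 fold change was 0.94 (SE 0.13, 95% confidence interval 0.63 to 1.24, limma adjusted p = 0.0328), a 1.92-fold increase with an interval of 1.55 to 2.37. In the controls Oas2 lay above only 2.89% to 21.4% of the receptor clusters, and after LPS above 82.1% to 86.4% of them. The call held in 1 of 6 fits that left out 1 array, again the one without LPS replicate 3, and the log2 fold change ranged from 0.83 to 1.04 over these fits.

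Oas3, the longest synthetase and the one known to respond best to long double-stranded RNA, lies beside Oas2. Log2 expression of Oas3 was 5.46, 5.51 and 5.16 after vehicle and 5.51, 5.51 and 5.32 after LPS. The groups overlapped, and the log2 difference was 0.07 (SE 0.12, interval -0.21 to 0.35, limma adjusted p = 0.822). The sign of this difference turned to -0.023 after centring each array on its median. Oas3 lay below the median of the receptor clusters on all 6 arrays.

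LPS replicate 3 was the lowest of the 3 LPS arrays for each of the 5 clusters of the Oas locus (Oas1a, Oas1b, Oas2, Oas3 and the shared cluster) and the highest for both Oasl genes. Relative to the mean of LPS replicates 1 and 2, it was lower by a log2 difference of -0.39 in the shared cluster, -0.33 in Oas1a, -0.20 in Oas2, -0.19 in Oas3 and -0.09 in Oas1b, and higher by 0.44 in Oasl2 and 0.13 in Oasl1. After each array was centred on its median, the order held for 6 of the 7 clusters, and Oas1b became highest in LPS replicate 3, by 0.05. With LPS replicates 1 and 2 both left out, Oasl2 was still called (log2 fold change 2.74, limma adjusted p = 0.0264), and it was the one member called. This fit assumes that the single LPS array varies as the PBS arrays do. The part of the array medians in these orders was not tested.

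Within each array, the log2 value of Oasl2 minus that of each other cluster was taken. Oasl2 had the largest log2 fold change of the 7, so this gap had to widen after LPS against the other 6, and only its size is described. The widening was smallest against Oas2, at 1.51, where the gap went from 1.75 ± 0.17 (SD, n = 3) to 3.26 ± 0.37 (SD, n = 3). Against Oas3 it was largest, at 2.37. The two-sided exact permutation p was 0.1 in each of the 6 pairs, before and after Benjamini-Hochberg adjustment over them. That is the smallest p that 3 arrays against 3 can give, and it did not pass 0.05. In the vehicle-treated controls the other 6 clusters lay within the range of the receptor genes, and the part of the background signal in these sizes was not tested. Against Oasl1, the next gene on the chromosome, the widening was 2.07.

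The members lie at 2 places on chromosome 5 in GRCm38.p6. Oasl2 (chr5:114896926-114912245) and Oasl1 (chr5:114923143-114937911) form one locus. The other holds Oas2 (chr5:120730333-120749886), Oas3 (chr5:120753098-120777684), Oas1b (chr5:120812635-120824163), Oas1g (chr5:120876142-120887613) and Oas1a (chr5:120896256-120907544), together with Oas1e, Oas1c, Oas1f, Oas1h and Oas1d. Clusters that rose and clusters that did not pass the test alternate along the Oas locus, with Oas3, Oas1e and Oas1c between Oas2 and Oas1b. Genes beside the loci were not called. Over all 35556 clusters limma called 232 higher and 22 lower, so no call among so few genes says little about the loci. Of the 10 measured genes nearest to the Oas locus, 5 on either side, none was called by limma, and their log2 differences ran from -0.39 for Rasal1 (limma adjusted p = 0.169) to 0.00 for Iqcd. At an unadjusted p under 0.05 limma gave 0 higher and 1 lower, and the methods' t-test 0 higher and 2 lower. Around the Oasl locus none of 10 was called by limma, with log2 differences from -0.31 for Ankrd13a to 0.17 for Mlec, and the unadjusted counts were 0 higher and 1 lower by limma and 1 higher and 1 lower by the methods' t-test.

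**Figure D2:**
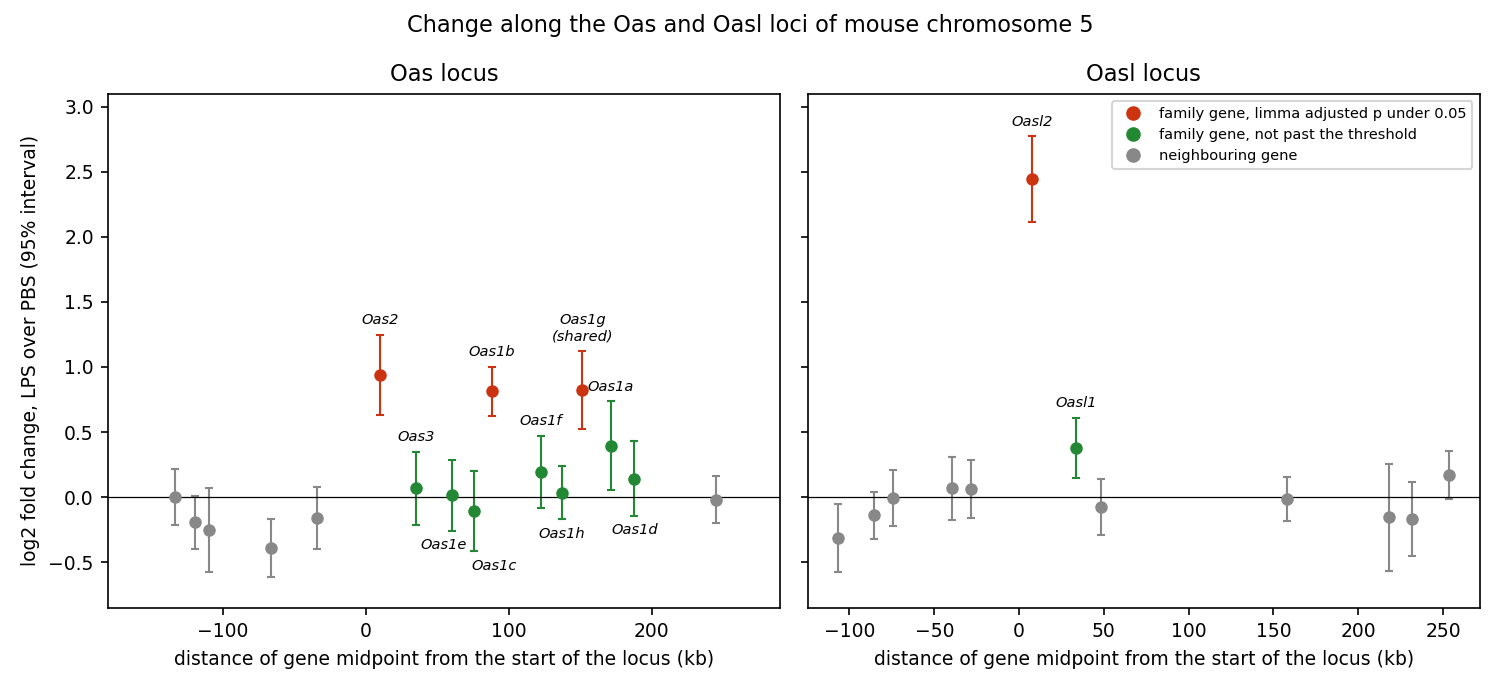
Log2 fold change of LPS over PBS with its 95% confidence interval (vertical axis) for the genes of the Oas locus and the Oasl locus and their measured neighbours, by distance of the gene midpoint from the start of the locus in kb (horizontal axis), in red where the limma adjusted p was under 0.05. Oas2, Oas1b and the cluster shared by Oas1g and Oas1a stand above the genes around them, Oasl2 above all, and 4 neighbours farther to the right of the Oas locus are not drawn. The shared cluster is drawn at the position of Oas1g only, though its signal can come from either gene. Oas1a is drawn from the cluster that names it alone.

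The 5 other genes of the mouse Oas1 group, Oas1c, Oas1d, Oas1e, Oas1f and Oas1h, are duplicates that are largely thought to lack synthetase activity. None of them was called by limma or by the methods' t-test, and none had an unadjusted p under 0.05 in either. Limma called 0.652% of all 35556 clusters higher, so no call among so few genes says little about them. At an unadjusted p under 0.05 limma gave 2733 higher and 2341 lower over all clusters. The log2 differences of the 5 genes were -0.11, 0.14, 0.01, 0.19 and 0.03 in that order, with a median of 0.03. For Oas1f alone every LPS array lay above every PBS array. None of the 5 was above the 95th percentile of the receptor clusters on any array. Of the genes that act after 2-5A is made, Pde12 and Akap7, whose proteins can degrade 2-5A, had log2 differences of -0.07 and -0.26 (limma adjusted p = 0.81 and 0.343), and Abce1, a ribosome recycling factor, had -0.04. The limma test called 0 of these 3, with Akap7 alone lower at an unadjusted p under 0.05, and the methods' t-test gave 0 at either level.

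Other sensors of double-stranded RNA and their adaptors form a list of 10 genes. By limma 2 rose, 0 fell and the other 8 were not called, where 0.652% of all 35556 clusters were called higher. The median log2 fold change of the 10 was 0.31, against -0.000925 over all clusters. Ddx58, the RIG-I helicase, was 7.28, 7.56 and 7.69 after vehicle and 8.90, 8.73 and 8.93 after LPS, a log2 fold change of 1.35 (limma adjusted p = 0.00713). Zbp1, a sensor of nucleic acid in the Z form, had a log2 fold change of 0.88 (limma adjusted p = 0.0255). Eif2ak2 had 0.80 and Ifih1 0.75, both with every LPS array above every PBS array, but with limma adjusted p values of 0.148 and 0.138. The adaptor Mavs had 0.00 and the editing enzyme Adar 0.09. In a list of 4 genes around cGAS, an enzyme with the fold of the Oas proteins that senses DNA, Sting1 alone rose, by 0.80 on the log2 scale (limma adjusted p = 0.00664), and Cgas itself had 0.16.

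Among 11 measured genes of the interferon receptors and the transcription factors of the response, 2 rose by limma, 0 fell and 9 were not called, and the median log2 fold change was 0.27. Irf7, a factor that interferon itself raises, was 5.36, 5.29 and 5.53 after vehicle and 8.17, 7.69 and 8.14 after LPS. Its log2 fold change of 2.60 (limma adjusted p = 0.00153) was the third largest increase among all clusters. Stat2 rose by 0.69 on the log2 scale (limma adjusted p = 0.0141). Irf9 had a log2 fold change of 0.92 with a limma adjusted p of 0.0555. Ifnb1, the gene of interferon beta, had a log2 difference of -0.02 and did not rise above the 95th percentile of the receptor clusters on any array. Over all 33 pathway genes measured, 5 were called higher by limma and 0 by the methods' t-test, and 12 had an unadjusted p under 0.05 in the latter, all higher.

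**Figure D3:**
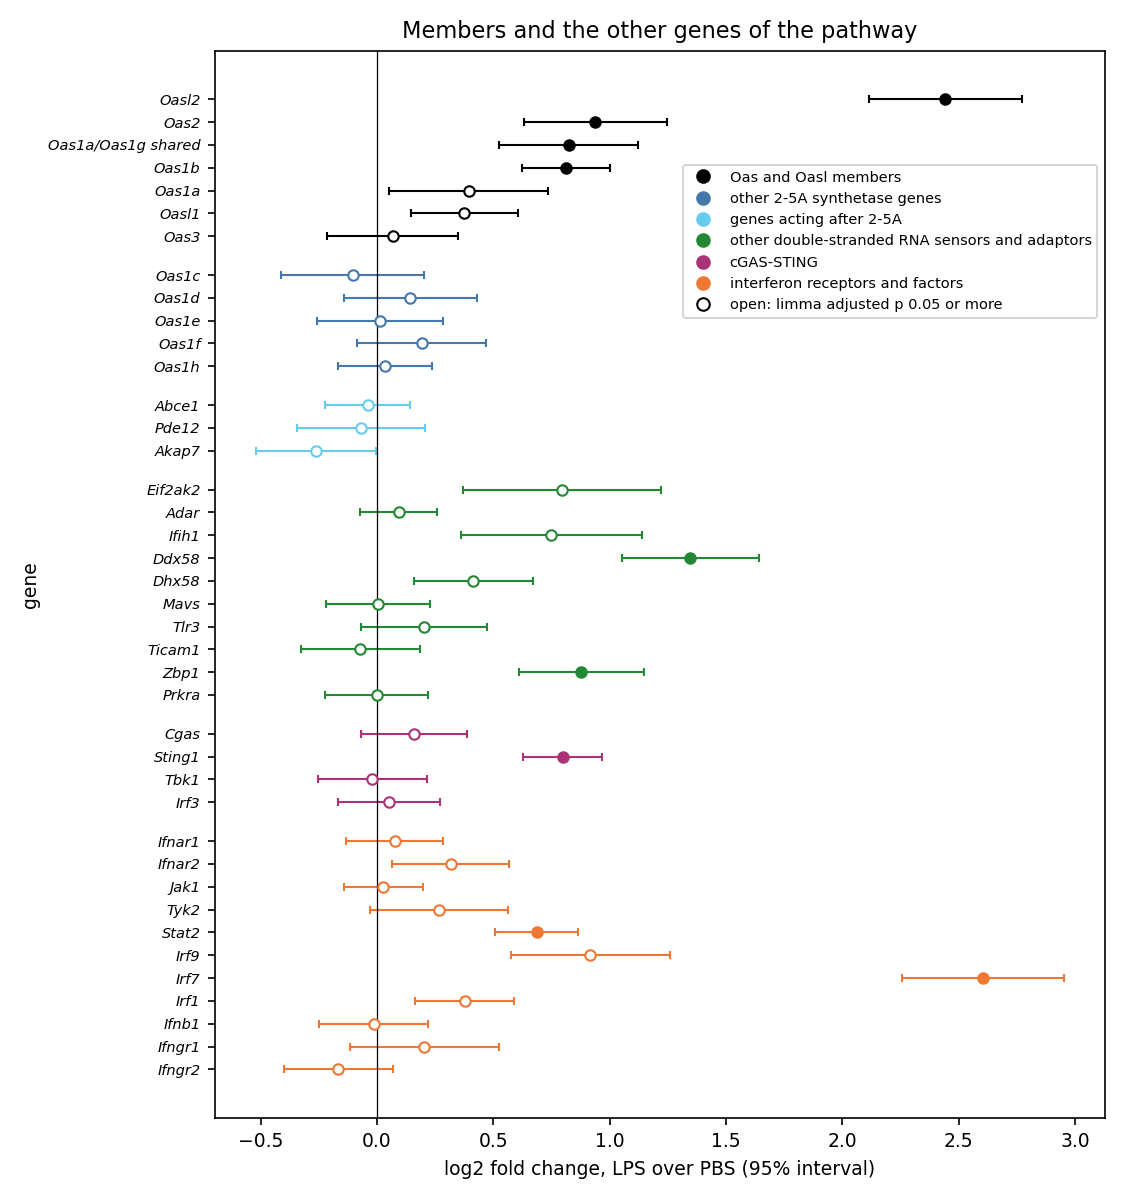
Log2 fold change of LPS over PBS with its 95% confidence interval (horizontal axis) for the 7 member clusters and the 33 other measured genes of the pathway, one gene per line and coloured by list, filled where the limma adjusted p was under 0.05. Oasl2 and Irf7 lie farthest to the right, and the other 2-5A synthetase genes lie around 0.

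Most markers of endothelium and of activated macrophages rose after LPS, and so did 4 of the 7 member clusters. The other cell types had no marker called higher. Limma called 0.652% of all 35556 clusters higher. Of 6 endothelial markers, 5 rose by limma (Pecam1, Cldn5, Cdh5, Tek and Emcn), with log2 fold changes of 0.85 to 1.08, and their summed linear signal, Flt1 included, was 1473 to 1643 on the PBS arrays and 2825 to 3095 on the LPS arrays. Of 5 markers of activated macrophages, 3 rose by limma (Itgam, Msr1 and Fcgr4), while Cd68 and Cd14, with log2 differences of 0.49 and -0.13, were not called. The summed signal of the 5 was 579 to 652 after vehicle and 1204 to 1345 after LPS. Of 6 microglial markers, 0 passed the limma test or the methods' t-test, with 2 higher at an unadjusted p under 0.05 in either. Their summed signal was 1955 to 2246 after vehicle and 2232 to 2797 after LPS. The 5 neuronal markers and the 5 astrocyte markers had 0 calls by limma and by the methods' t-test, and their counts at an unadjusted p under 0.05 by limma were 0 and 1, the latter higher. All of the neuronal, astrocyte and oligodendrocyte markers measured were above the 95th percentile of the receptor clusters on all 6 arrays. The part of the endothelial and macrophage markers in the rise of the called members was not tested. The 5 neutrophil markers, the 2 monocyte markers, the 5 markers of T and NK cells and the 2 B cell markers were not above that percentile on any array. Of these blood cell markers 0 passed the limma test or the methods' t-test, and 2 of the T and NK cell markers were higher at an unadjusted p under 0.05 in either. Of 3 red blood cell clusters 1, which Hbb-b1 shares with other globin genes, fell by limma, and their summed signal was 1084 to 1813 after vehicle and 420 to 779 after LPS.

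For each member cluster that rose, the 3 genes with the most similar profile were taken, by the root mean square difference over the 6 arrays after subtraction of the mean of the PBS arrays. Closest to Oasl2 were Ifi207, Rtp4 and Irf7, at 0.21, 0.22 and 0.23 log2 units. For Oas1b they were Sting1, Siglec1 and Foxf2, all at 0.07. Oas2 was closest to Ptprc, Podxl and Pla2g4a, at 0.09 to 0.13. Nlrc5, 6330407A03Rik and Ch25h were closest to the cluster of Oas1a and Oas1g, at 0.09 to 0.11. All 12 of these genes had a limma adjusted p under 0.05, which a choice by similarity to a called cluster makes likely. The measure is a description over 6 arrays, and a small member change is easier to match closely than a large one.

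The direction of the change was positive for 6 of the 7 clusters under every alternative that could be fitted, and Oas3 was the exception. How many passed the test depended on the setting. Oasl2 passed 16 of 17 alternatives, all but the methods' t-test (adjusted p = 0.0672), with log2 fold changes of 2.18 to 2.74. Oas1b passed 9 of 16, Oas2 8 of 16, the cluster of Oas1a and Oas1g 5 of 15, and Oas1a and Oasl1 1 of 16 each, with array weights. Oas3 passed 0 of 16. The log2 fold change ran from 0.54 to 0.84 for Oas1b and from 0.58 to 1.04 for Oas2, and both were lowest with an offset of 32 added on the linear scale, which shrinks the change of low values.

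**Figure D4:**
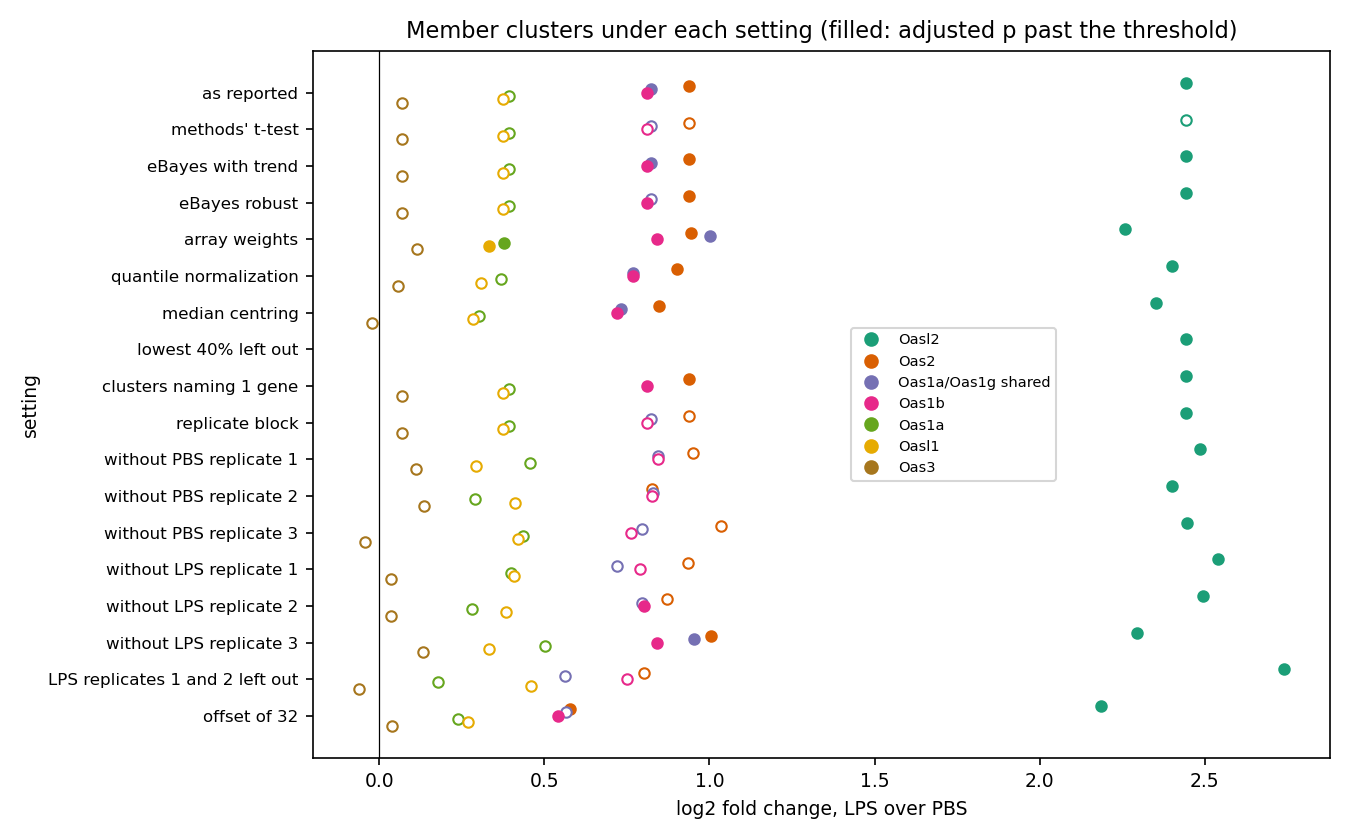
Log2 fold change of LPS over PBS (horizontal axis) of the 7 member clusters under each alternative setting (vertical axis), filled where the adjusted p was under 0.05. Oasl2 stays between 2.18 and 2.74 and is open only under the methods' t-test, while the clusters near 0.8 are open under many settings.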

How the data were processed

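Log2 expression values were taken as deposited by the authors, who ran RMA (background correction, normalization and probe summary) on Affymetrix Mouse Gene 1.0 ST arrays. The methods describe more than 1 form of RMA, and do not state which one made the deposited values. RMA can compress changes near background. Groups and replicate numbers were taken from the sample titles, and the mice of a group were separate animals. Precision is limited by the 3 arrays per group.

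Gene names come from GEO's annotation of the platform, and old symbols were replaced by way of the gene identifiers. Of 35556 clusters, 21789 name 1 gene, 1621 several and 12146 none. For a gene of the other lists, the cluster with the highest mean among those naming it alone was used, except that globin genes were read from the clusters they share. In R 4.3.3, limma 3.58.1 (lmFit, then eBayes) gave two-sided tests of LPS against PBS. The p-values were adjusted by Benjamini-Hochberg across every cluster, and clusters under 0.05 were called. The procedure was run on simulated data with independent noise for each cluster, which leaves out variation that the clusters of an array share. The unpaired t test of the methods is called the methods' t-test. The alternatives were this test, array weights, a variance trend, robust eBayes, quantile normalization, median centring, the lowest 40% of clusters left out, clusters naming 1 gene, the replicate number as a block, each array left out, LPS replicates 1 and 2 left out, thresholds of 0.1 and 0.01, and an offset of 32 on the linear scale.

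The members and lists, and the rule for named genes (all members and list genes, the 5 measured genes on either side of each locus, and the 3 most similar genes for each member called), were chosen with earlier results of these data known, so the calls of members are not independent support. Promoters were read from RefSeq, GRCm38.p6, and searched and aligned with Python 3.11.15 and Biopython 1.88. The motifs were GAAANNGAAA, TTCNNNGAA, GGGANNTTCC and TATAAA on both strands. Protein sequences were not used here, and some genes of the pathway are not reported here.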

Additional observations from a re-analysis of the deposited data

How the results depend on the processing

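Of the 7 member clusters, 4 were called higher. The count was 0 under the methods' t-test, 1 with the lowest 40% of clusters left out (where the other 6 were themselves removed), 1 with the replicate block, 1 with LPS replicates 1 and 2 left out, 2 at an adjusted p under 0.01 and 1 to 4 when 1 array was left out, with the count of 4 without LPS replicate 3. With array weights it was 6. Under the other alternatives it was 3 or 4. Of the 33 other pathway genes, 5 were called higher, with 0 under the methods' t-test, 11 with array weights, 2 with the replicate block, 1 with LPS replicates 1 and 2 left out, 3 at an adjusted p under 0.01 and 2 to 8 when 1 array was left out. Over all clusters, 232 were called higher and 22 lower. The counts higher and lower were 4 and 1 under the methods' t-test, 4751 and 3572 with array weights, 141 and 10 after median centring, 76 and 4 with the replicate block, 71 and 12 with LPS replicates 1 and 2 left out, 356 and 64 at an adjusted p under 0.1, and 97 and 0 at an adjusted p under 0.01. When 1 array was left out they ranged from 74 to 2640 and from 0 to 1152, with the highest of both without LPS replicate 3. Quantile normalization gave 13 lower, and testing clusters that name 1 gene gave 61 lower. The difference of Oas3 was 0.068. It turned to -0.023 after median centring and to -0.060 with LPS replicates 1 and 2 left out, and it ranged from -0.042 without PBS replicate 3 to 0.14 when 1 array was left out. The cause of these changes was not tested, other than by the smaller number of arrays or clusters that an alternative leaves. Same-numbered LPS and PBS arrays had correlations of their deviations of 0.0867, -0.0538 and 0.0997, and arrays of different number had -0.166 to 0.146. With 3 arrays per group these values cannot settle whether the arrays were paired. No pairing was assumed in the main fit, and the replicate block was kept as an alternative. With 3 arrays per group and most members within the range of the receptor genes, small changes of Oas3, Oas1a and Oasl1 could not be resolved.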
